A study of Homo sapiens with 8 samples.

Results

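TIA1 binding sites that stand alone, away from other TIA1 sites and away from RBFOX2 sites, were described from eCLIP peak lists of HEK293T cells. The members were chosen by the positions of the called peaks. A TIA1 peak was a member when no RBFOX2 peak overlapped it or lay within 1000 bases on the same strand, and when no other TIA1 peak lay within 1000 bases on that strand. This left 1104 of the 3215 TIA1 peaks, or 34.3% of the list (95% Clopper-Pearson interval 32.7 to 36.0%). Both lists together held 7442 peaks. The remaining TIA1 peaks fell into 773 that overlapped an RBFOX2 peak, 358 that lay beside one within 1000 bases, and 980 that were far from RBFOX2 but had another TIA1 peak within 1000 bases.

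In eCLIP, ultraviolet light links proteins to the RNA they touch, the protein is pulled down with its RNA, and the RNA is sequenced beside an input that was not pulled down. HEK293T cells are a line from human embryonic kidney that expresses the large T antigen of the virus SV40. The 8 libraries were 2 TIA1 clip, 2 TIA1 input, 2 RBFOX2 clip and 2 RBFOX2 input libraries, from cells that had received 600 mJ of ultraviolet light. All clip libraries carry the label of an anti-HA tag antibody, while the same protocol text speaks of beads carrying TIA1 for all libraries. The sources used here do not say how the tagged proteins were expressed, and neither a drug treatment nor a mutant is named for any group. Whether the replicates were biological or technical is unclear, since the labels use both words.

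TIA1 carries RNA recognition motifs that favour U-rich RNA. In the nucleus it binds downstream of weak 5′ splice sites and helps the U1 snRNP recognise them. In the cytoplasm it binds U-rich and AU-rich stretches of mRNA, can hold back translation, and enters stress granules together with stalled messages. RBFOX2, a regulator of splicing, recognises a short GCAUG element, and its list served here to set which TIA1 peaks lay far from it and to give a mirrored set of solitary peaks. Peaks are named by position in hg19, 1-based, because no annotation or sequence of that build was used here. Whether a peak lies in an exon, an intron or an untranslated region was therefore not analysed, and no sequence is shown.

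Each deposited peak has a log2 fold, read as clip over input, and a −log10 p, and both are the authors' own values for the 2 replicates together. There is no value per library, so no spread between replicates can be given, and the depth is unknown. The peaks in the list all have a log2 fold of at least 3 (8-fold) and a −log10 p of at least 3.01. Intervals given for shares and medians are exact binomial intervals at 95% over peaks. They describe how well a value is fixed by the number of peaks and not how it would vary between libraries. The fold, the −log10 p and the width come from the same peak calls as the positions that chose the members, so they are given as descriptions with no test.

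The solitary peaks were mostly modest in fold. Their median log2 fold was 3.29 (3.26 to 3.31), with an interquartile range of 3.12 to 3.52 and a highest value of 5.11. Of the 1104 peaks, 235 (21.3%) had a log2 fold under 3.1, just above the lower limit of the list, against 16.2% of all TIA1 peaks. A further 267 (24.2%) lay between 3.1 and 3.25, 302 (27.4%) between 3.25 and 3.5, and 241 (21.8%) between 3.5 and 4, against 21.5%, 27.0% and 26.2% of all TIA1 peaks. In 59 members, 5.34% (4.09 to 6.84%), the log2 fold was 4 or more, which is 16-fold, while 9.21% of the whole TIA1 list reached this. A log2 fold of 4.5 or more was found in 10 members (0.91%) and in 73 of all TIA1 peaks (2.27%). Members thus crowded near the lower limit of fold, and how many solitary sites lie below it cannot be seen.

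The −log10 p of the members was low as well, with a median of 5.36 (5.11 to 5.61) and an interquartile range of 4.03 to 8.13. Values under 4 were found in 254 members (23.0%) and values from 4 to 5 in another 254, against 13.5% and 15.1% of all TIA1 peaks. A −log10 p of at least 10 was reached by 173 members, 15.7% (13.6 to 17.9%), compared with 33.3% of the whole list. Both measures were at the low end, with a log2 fold under 3.25 and a −log10 p under 5, in 246 members (22.3%) and in 12.8% of all TIA1 peaks. Among the members fold and −log10 p had only a weak rank relation, with a Spearman rho of 0.080 over 1104 peaks. Both measures are cut at the lower limits of the list, so the rho does not show how they relate over all sites. All these peaks share the same libraries, and −log10 p also depends on the read number at a site, so the rho is a description.

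**Figure D1:**
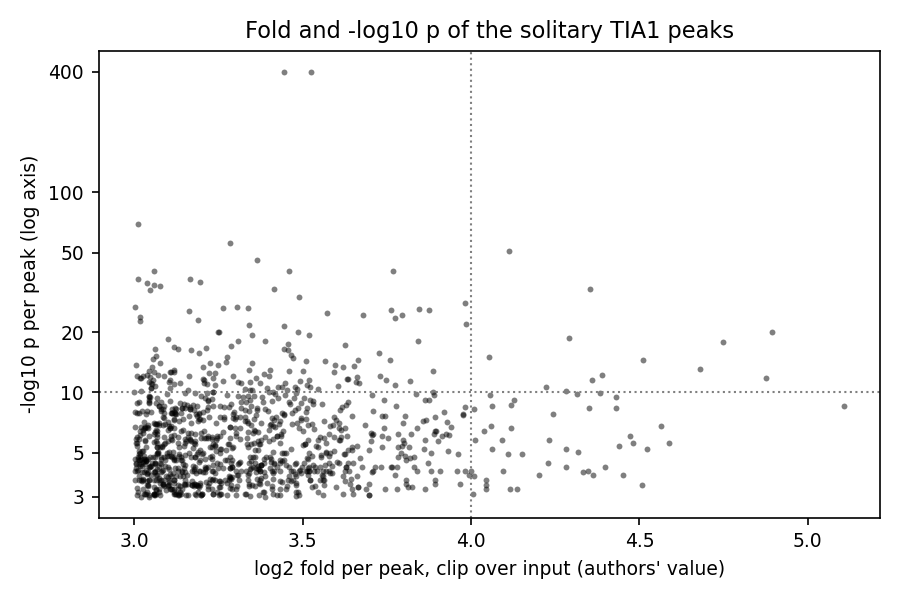
Log2 fold (horizontal axis) and −log10 p (vertical axis, log scale) of the 1104 solitary TIA1 peaks, 1 point per peak, with dotted lines at a log2 fold of 4 and a −log10 p of 10. Points crowd at the lower limits of both axes, and the 2 points at 400 have log2 folds of 3.45 and 3.52.

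The members of highest fold were spread over 9 chromosomes. The first, chr1:94883967-94884056 on the plus strand, was 90 bases wide, with a log2 fold of 5.11 (34.5-fold) and a −log10 p of 8.55. Its nearest TIA1 and RBFOX2 peaks on the strand were both 1072 kb away. On the minus strand of chromosome 16, chr16:50402742-50402835 had a log2 fold of 4.89 (29.7-fold) and a −log10 p of 20.0, the highest among these 10. It lay 3788 kb from another TIA1 peak and 2008 kb from an RBFOX2 peak. These sites were strong in fold with no other peak of either list on the strand for about a megabase or more.

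Chromosome 19 gave 2 of the 10. The plus-strand peak chr19:17186627-17186683 had a log2 fold of 4.88 and a −log10 p of 11.8, with another TIA1 peak 25.8 kb away. The plus-strand peak chr19:46029938-46030006 had a log2 fold of 4.56 and a −log10 p of 6.76. These 2 sites were far apart on the chromosome and differed in the room around them, since the nearest TIA1 peak to the second was 474 kb away.

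Among the others, chr5:179125977-179126026 on the plus strand had a log2 fold of 4.75, with peaks of both lists about 30.4 to 30.5 kb away. The plus-strand peak chr7:16685800-16685914, with a log2 fold of 4.68 and a −log10 p of 13.1, was 4414 kb from the nearest peak of either list. On the minus strand of chromosome 12, chr12:9392996-9393059 had a log2 fold of 4.59, and its nearest RBFOX2 peak was 163 kb away. The last 3 were all on plus strands and close to one another in fold, from 4.51 to 4.52. The peak chrY:10037820-10037878 had 4.52 and was the only peak of either list placed on chromosome Y. Whether its reads truly came from that chromosome, or from a similar sequence elsewhere, was not tested. The peak chr20:17581382-17581415 had 4.51 with a −log10 p of 14.5, and chr15:65868809-65868868 had 4.51 with a −log10 p of only 3.45. Plus strands held 8 of these 10 peaks.

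The 10 members of highest −log10 p were other peaks, and the sets shared 0 members. Sets of 10 among 1104 members would seldom share a peak if the measures were unrelated, so this 0 says little. Only 2 members stood at the upper limit of 400, 2 of the 65 peaks that reached it in the whole list (2.02% of TIA1 peaks). Both were on the minus strand of chromosome 6 and were each other's nearest TIA1 peak, 1058 kb apart. One was chr6:27114550-27114618, with a log2 fold of 3.52 (11.5-fold), and the other chr6:26056582-26056664, with a log2 fold of 3.45 (10.9-fold). Next came a large step down, since no other member had a −log10 p above 69.1.

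That value belonged to chr19:1438806-1438822 on the plus strand, 17 bases wide, whose log2 fold of 3.01 sat at the limit of the list. A second chromosome 19 peak, chr19:13049458-13049571 on the plus strand, had a −log10 p of 55.6 and a log2 fold of 3.29. The minus-strand peak chr2:27632325-27632446 combined a −log10 p of 51.1 with a log2 fold of 4.11 (17.3-fold), and it was the only one of these 10 with a log2 fold of at least 4. On the minus strand of chromosome 14, chr14:51411072-51411202 had a −log10 p of 46.0 and a log2 fold of 3.36.

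The last 4 of these peaks were on plus strands and had a −log10 p between 36.7 and 40.6. The peak chr3:141595517-141595614 had a log2 fold of 3.46 and was 8303 kb from the next TIA1 peak, yet 138 kb from an RBFOX2 peak. The peak chr5:170814855-170814953 had a log2 fold of 3.77 and its nearest peak of either list 1564 kb away. The peaks chr11:65686906-65687010 and chr12:2904166-2904284 had log2 folds of 3.06 and 3.17. The second of them lay 8.41 kb from an RBFOX2 peak, the closest such neighbour among these 10. Peaks chosen by −log10 p thus had log2 folds from 3.01 to 4.11, and those chosen by fold had a −log10 p from 3.45 to 20.0.

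The 59 members with a log2 fold of at least 4 lay on 20 of the 25 chromosomes. Their −log10 p had a median of 6.08 (5.19 to 8.36) and ran from 3.09 to 51.1, and 19 of the 59 were under 5. Their median width of 76 bases (67 to 90) was close to the 74 bases of the other 1045 members. The plus strand held 34 of them, 57.6% (44.1 to 70.4%), while among all members it held 573, 51.9% (48.9 to 54.9%). These intervals overlap, and the strands were not tested against each other.

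Set beside the other TIA1 peaks, the solitary peaks had the lowest median fold of the 4 classes. Clustered TIA1 peaks far from RBFOX2 had a median log2 fold of 3.34 (3.32 to 3.37), peaks beside RBFOX2 3.42 (3.37 to 3.46), and peaks overlapping RBFOX2 3.47 (3.42 to 3.51). At a log2 fold of 4 or more were 8.06% of clustered peaks (79 of 980), 8.94% of peaks beside RBFOX2 (32 of 358) and 16.3% of overlapping peaks (126 of 773). The median −log10 p followed the same order, at 8.42 in clustered, 8.95 in neighbouring and 9.46 in overlapping peaks, all above the 5.36 of the members. The classes were made from the same calls, so these orders are a description and no difference between classes was tested.

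**Figure D2:**
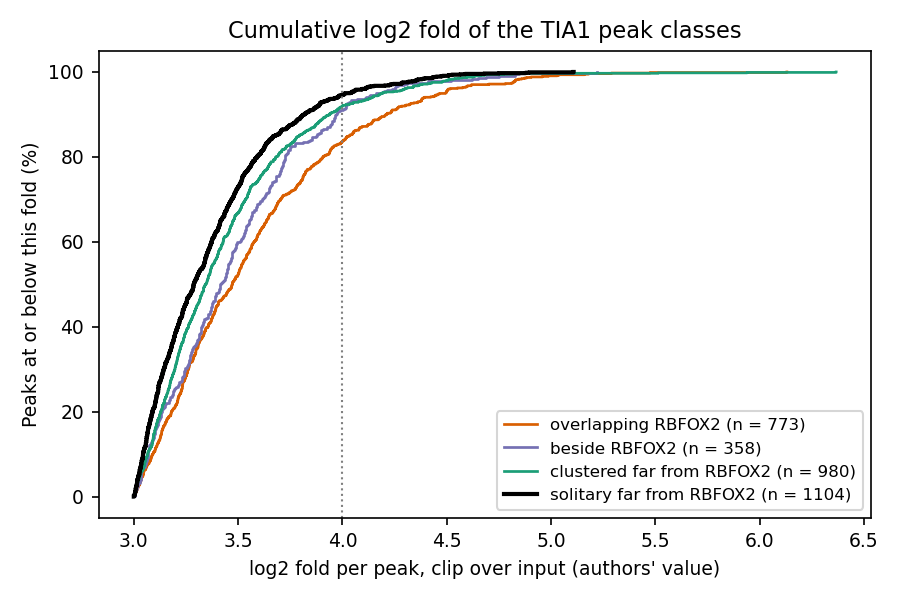
Cumulative share of peaks (vertical axis, percent) at or below each log2 fold (horizontal axis) for the 4 classes of TIA1 peaks, with a dotted line at a log2 fold of 4. The curve of the 1104 solitary peaks lies farthest to the left over most of the range, and 5.34% of them reach a log2 fold of 4, against 16.3% of the 773 peaks that overlap RBFOX2.

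The gap in fold to the clustered peaks was not the same at all widths. Among peaks under 20 bases, 2 of 143 solitary peaks (1.40%) and 27 of 320 clustered peaks (8.44%) had a log2 fold of at least 4. From 20 to 49 bases it was 6 of 196 (3.06%) and 33 of 322 (10.2%). From 50 to 99 bases the solitary peaks had the larger share, with 36 of 434 (8.29%, interval 5.88 to 11.3%) beside 17 of 264 (6.44%, 3.80 to 10.1%), and the intervals overlap. At 100 bases or more it was 15 of 331 (4.53%, 2.56 to 7.36%) and 2 of 74 (2.70%, 0.33 to 9.42%), and these intervals overlap too. The median log2 fold was lower in the solitary peaks in every width band. It was 3.236 in solitary and 3.343 in clustered peaks under 20 bases, and 3.237 and 3.335 from 20 to 49. From 50 to 99 bases it was 3.339 and 3.351, and at 100 or more 3.286 and 3.355. In bands of −log10 p the median log2 fold was 3.26 in solitary and 3.30 in clustered peaks under 5, and 3.30 and 3.34 from 5 to 10. From 10 to 20 it was 3.34 in 133 solitary peaks and 3.35 in 209 clustered peaks, and at 20 or more it was 3.34 (3.20 to 3.49) in 40 solitary peaks and 3.43 (3.34 to 3.48) in 165 clustered peaks.

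Joining TIA1 peaks within 50 bases turned the 3215 peaks into 2413 sites, of which 1319 met the rule, the 1104 members and 215 sites made of 2 or more peaks. Those 215 sites had a median log2 fold of 3.55 (3.47 to 3.64), a median −log10 p of 9.78 (8.61 to 11.5) and a median width of 104 bases (93 to 112). A log2 fold of at least 4 was found in 35 of them, 16.3%, and 7 reached a −log10 p of 400. Over all 2413 joined sites, near RBFOX2 or not, 241 (9.99%) had such a fold and 20 reached 400. A joined site took the highest values of its peaks, which raises them by construction. The members are therefore the single-peak part of the isolated TIA1 sites.

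RBFOX2 peaks chosen by the mirrored rule were almost as many, at 1096 of 4227, or 25.9% of their list (24.6 to 27.3%). Their median log2 fold was 3.38 (3.36 to 3.42), also below the 3.48 of the whole RBFOX2 list, and their median −log10 p was 4.77 against 6.77. Low fold and low −log10 p relative to the full list were thus seen in the solitary peaks of both proteins. The lists come from separate immunoprecipitations of unknown depth, so each solitary set is read only against its own list.

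The members were wider than the clustered peaks. Their median width was 74 bases (71 to 77), with an interquartile range of 39 to 109 and extremes of 2 and 255 bases, and together they covered 85.2 kb of the 210.1 kb in the list. Clustered peaks had a median of 33 bases (30 to 36), peaks beside RBFOX2 55 and overlapping peaks 79. Peaks under 20 bases made up 13.0% of the members (143 peaks), 32.7% of clustered peaks and 18.8% of the whole list. The widest members were chr2:64863550-64863804 on the minus strand, with 255 bases, chr15:80987542-80987777 on the plus strand, with 236, and chr12:100536377-100536601 on the minus strand, with 225. All 3 were weak, with log2 folds of 3.24, 3.15 and 3.03 and a −log10 p between 4.81 and 5.59.

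How solitary the members were varied widely. The nearest other TIA1 peak on the strand lay at a median of 185 kb (155 to 224 kb), with an interquartile range of 24.1 to 970 kb. The nearest RBFOX2 peak lay at a median of 281 kb (236 to 325 kb). Another TIA1 peak was between 1 and 2 kb away in 48 members (4.35%). In 271 (24.5%) there was none within 1000 kb, and 2 of these had no other TIA1 peak on their chromosome and strand. With both lists counted, 251 members (22.7%) had a peak within 10 kb and 157 (14.2%) had none within 1000 kb, including 2 with no other peak of either list on their chromosome and strand. The nearest peak of either list was an RBFOX2 peak for 496 members, another member for 408 and a TIA1 peak of another class for 192, with 6 ties. The RBFOX2 list was also the longer, with 4227 peaks beside 3215 TIA1 peaks, and these counts were not adjusted for that. The name solitary thus covers isolated sites and also sites spaced a few kilobases apart along the strand.

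**Figure D3:**
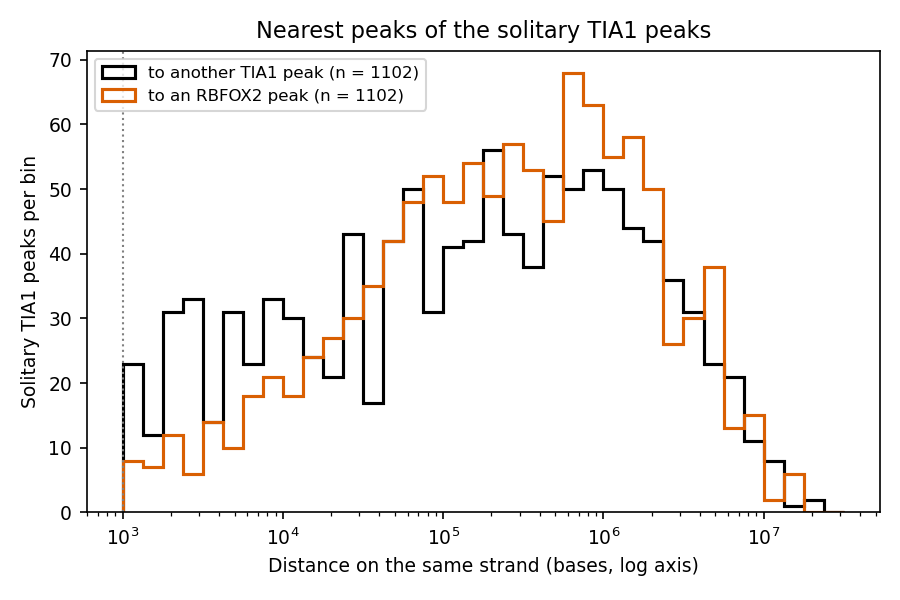
Number of solitary TIA1 peaks (vertical axis) by distance on the strand (horizontal axis, bases, log scale) to the nearest other TIA1 peak and to the nearest RBFOX2 peak, for the 1102 peaks that have one, with a dotted line at the limit of 1000 bases. The medians are 185 kb and 281 kb, and 48 members have another TIA1 peak between 1 and 2 kb away.

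The 3 peaks nearest to each side of the limit were as follows. Those just outside were taken only among TIA1 peaks that failed the distance named and met the other. Just inside was the plus-strand peak chr8:145065368-145065382, which had a TIA1 and an RBFOX2 peak each 1001 bases away, a width of 15 bases, a log2 fold of 3.23 and a −log10 p of 3.67. A pair of plus-strand peaks on chromosome 14, chr14:64407332-64407391 and chr14:64408416-64408438, were 1025 bases apart, with log2 folds of 3.49 and 3.04 and a −log10 p of 6.63 and 3.09. For distance to RBFOX2, chr14:90872900-90872979 on the plus strand, at 1015 bases, had a log2 fold of 4.45 and a −log10 p of 3.85. The plus-strand peak chr21:47410932-47410955, at 1026 bases, had a log2 fold of 3.07 and a −log10 p of 4.97.

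Just outside were chr16:2136835-2136872 on the plus strand, chr19:1123941-1123985 on the minus strand and chr10:102267780-102267806 on the minus strand. Their nearest TIA1 peaks were 996, 968 and 958 bases away, and their log2 folds were 3.10, 3.31 and 3.30, with a −log10 p of 6.78, 3.17 and 3.07. Outside by distance to RBFOX2 were chr1:19471343-19471373, chr12:49435068-49435183 and chr1:1309651-1309738, all on minus strands, at 929, 849 and 691 bases, with log2 folds of 3.47, 3.37 and 3.12 and a −log10 p of 6.26, 13.6 and 6.84.

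Width rose with distance to the nearest peak of either list. The median width was 35 bases (28 to 42) in the 251 members with a peak within 10 kb and 68 bases (60 to 76) in the 326 at 10 to 100 kb. It was 92.5 bases (86 to 98) in the 370 at 100 to 1000 kb and 101 bases (90 to 110) in the 157 beyond 1000 kb. Peaks under 20 bases fell in step, from 77 of 251 (30.7%) in the nearest band to 49 of 326 (15.0%), 14 of 370 (3.78%) and 3 of 157 (1.91%) in the farthest. Across the 1104 members, width and distance to the nearest TIA1 peak had a Spearman rho of 0.47, a description over peaks from the same libraries.

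The same order of widths appeared on each strand and on both sides of a −log10 p of 5. On the plus strand the medians ran from 33.5 to 102 bases and on the minus strand from 35 to 100 bases. With a −log10 p under 5 they ran from 26.5 to 90 bases, and with 5 or more from 44 to 108.5 bases. Among members of at least 20 bases they ran from 53 to 102 bases. The 1096 solitary RBFOX2 peaks also showed it, less steeply, with medians of 76, 86, 103 and 110 bases in the 4 bands. Why narrow peaks lie closer to others was not tested.

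**Figure D4:**
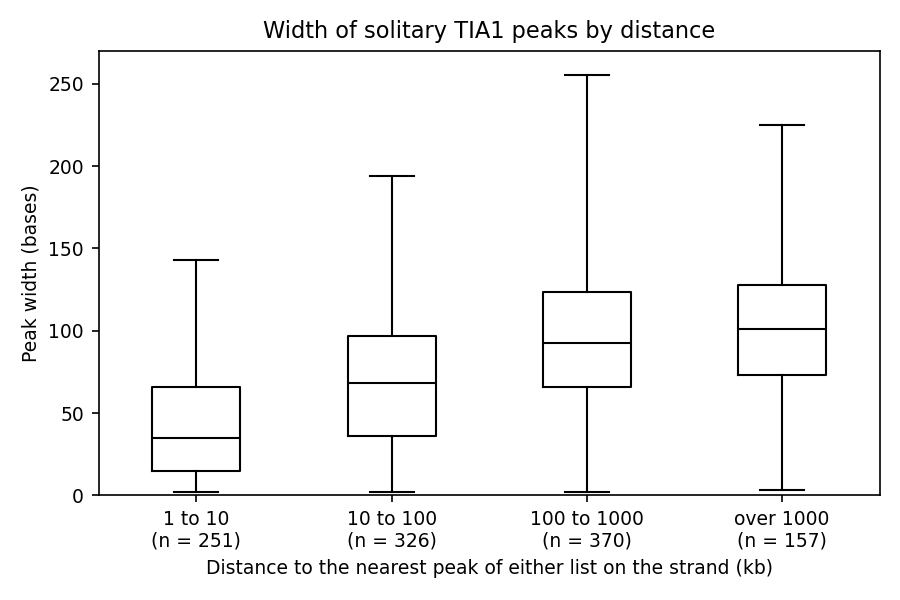
Peak width (vertical axis, bases) of the solitary TIA1 peaks in 4 bands of distance to the nearest peak of either list on the strand (horizontal axis, kb). Boxes span the quartiles with the median as a line, and whiskers reach the lowest and highest peak. The medians climb from 35 to 68, 92.5 and 101 bases.

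Fold had a weaker rank relation to distance than width had. With distance to the nearest TIA1 peak, log2 fold had a Spearman rho of 0.12 over the 1104 members, beside 0.47 for width. The median log2 fold was 3.25 (3.22 to 3.31) within 10 kb, 3.28 at 10 to 100 kb, 3.29 at 100 to 1000 kb and 3.36 (3.29 to 3.43) beyond 1000 kb. At least 4 was the log2 fold of 7 of 251 (2.79%, 1.13 to 5.66%) in the nearest band and of 21 of 326 (6.44%, 4.03 to 9.68%) in the next. In the third band it was 18 of 370 (4.86%, 2.91 to 7.58%) and in the farthest 13 of 157 (8.28%, 4.48 to 13.7%), so this share did not climb steadily with distance. The median −log10 p stayed between 4.92 and 5.52 in the 4 bands, lowest beyond 1000 kb. The most remote member was chr12:67462983-67463132 on the minus strand, with 9248 kb to the nearest peak of either list and a log2 fold of 3.48. After it came chr9:71789157-71789307, 8003 kb from a TIA1 peak, and chr18:48405493-48405664, 7306 kb from one, both on plus strands, with log2 folds of 3.30 and 3.75. These 3 were 150 to 172 bases wide, broader than 3 in 4 of the members.

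Members were found on all 25 chromosomes that hold a TIA1 peak. Chromosomes 19 and 1 held most, with 94 (8.51%, 6.93 to 10.3%) and 92 (8.33%), followed by chromosome 12 with 80 and chromosome 17 with 75. For chromosome 19 the share was nearly that of all TIA1 peaks there, 8.65%. The share of a chromosome's TIA1 peaks that were solitary ran from 23.9% on chromosome 21 (21 of 88, interval 15.4 to 34.1%) to 51.6% on chromosome 18 (16 of 31, 33.1 to 69.9%), with chromosomes Y and M left aside. Chromosome 13 had 50.0% (25 of 50, 35.5 to 64.5%) and chromosome 14 had 46.5% (46 of 99). Chromosome 1 had 28.0% (92 of 329, 23.2 to 33.1%). With chromosomes Y and M again left aside, chromosome 11 members had the lowest median log2 fold, 3.13 over 46 peaks. On chromosomes 3, 6, 18 and 22 no member reached a log2 fold of 4, among 53, 41, 16 and 30 members. On chromosome 21 it was 5 of 21. Over all members the share was 5.34%, so few such peaks would be looked for on chromosomes 3, 6, 18 and 22. The 5 of 21 on chromosome 21 were above that share. Such counts were not made for all TIA1 peaks of each chromosome, so neither can be called particular to the members. Each single chromosome's interval is wide, and the chromosomes were not tested against each other.

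**Figure D5:**
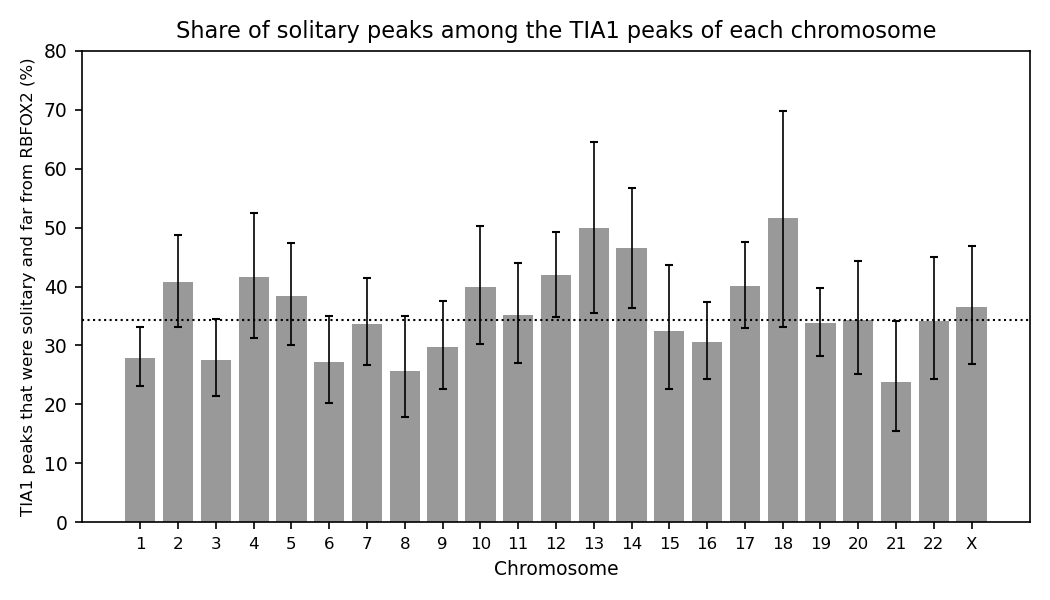
Share of each chromosome's TIA1 peaks that were solitary and far from RBFOX2 (vertical axis, percent), by chromosome, with exact 95% Clopper-Pearson intervals and a dotted line at 34.3%, the share over the whole list. Shares run from 23.9% on chromosome 21 to 51.6% on chromosome 18, and chromosomes Y and M, with 1 peak each, are not drawn.

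By the listed positions, chromosomes Y and M each held a single TIA1 peak, which was a member, and no RBFOX2 peak. The mitochondrial peak chrM:9723-9796 on the plus strand had a −log10 p of 34.3 but a log2 fold of 3.06, near the lower limit. The mitochondrial genome makes abundant transcripts from both strands, and the chromosome Y peak, described above, had the opposite profile, a high fold with a −log10 p of 5.19.

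The members spread over 642 windows of 1 Mb, out of 1017 windows with any TIA1 peak. A single member was found in 415 windows, and 38 windows held 5 or more. In 357 windows all TIA1 peaks were members, and in 180 windows the members, 225 peaks in all, were the only peaks of either list on either strand. An RBFOX2 peak shared the window in 426 of the 642.

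The window with most members was chromosome 12 from 56 to 57 Mb, where 11 of 12 TIA1 peaks were solitary and 10 of the 11 lay on the minus strand. The same window held 12 RBFOX2 peaks, counted over both strands. Between positions 56559246 and 56583488 on the minus strand, 7 members followed one another at distances of 1.85 to 7.04 kb. Their log2 folds ran from 3.04 to 3.81 and their −log10 p from 3.37 to 8.60, and 3 of the 7 were under 10 bases wide. The RBFOX2 peak nearest to this run was 52.3 kb from its closest member. This was the longest run of members spaced at most 10 kb apart on a strand, and all 7 had a log2 fold under 4.

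On chromosome 14 from 64 to 65 Mb all 9 TIA1 peaks were members, 8 of them on the plus strand, and there was no RBFOX2 peak (0) in the window. Their log2 folds ran from 3.03 to 3.89, the highest at chr14:64319730-64319856 with a −log10 p of 9.72. On chromosome 16 from 1 to 2 Mb 9 of 20 TIA1 peaks were members, 7 of them on the plus strand, with a median log2 fold of 3.71, against 3.29 for all members. Of these, chr16:1261531-1261603 on the plus strand reached 4.06 and lay 1.11 kb from another member. The chromosome 16 window also held 6 RBFOX2 peaks. The window of chromosome 21 from 47 to 48 Mb, which holds 48 TIA1 and 13 RBFOX2 peaks, had 8 members with a median log2 fold of 3.08. Windows from 17 to 18 Mb on chromosome 19 and from 62 to 63 Mb on chromosome 20 held 7 members each and no RBFOX2 peak (0 in both), and on chromosome 20 all 7 were on the plus strand.

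Peaks on the opposite strand were rare near the members. A TIA1 peak lay within 1000 bases on the opposite strand in 4 members and an RBFOX2 peak in 4, and 6 members (0.54%, 0.20 to 1.18%) had either. None of these overlapped (0 of 4 in both lists). A pair of members faced each other on chromosome 5, chr5:65018081-65018205 on the plus strand and chr5:65017745-65017894 on the minus strand, 187 bases apart, with log2 folds of 3.46 and 3.35. On chromosome 4, the plus-strand peak chr4:1243277-1243409 had a TIA1 peak 371 bases and an RBFOX2 peak 369 bases away on the other strand, with a log2 fold of its own of 3.12. The solitary peaks were thus almost always solitary on both strands at this distance. The same share was not counted for the other TIA1 peaks, so it cannot be called particular to the members.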

How the data were processed

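The authors deposited 1 peak list per protein, each a joint product of 2 clip and 2 input libraries per the labels. The submitters' processing notes name UMI-tools 1.0.0, cutadapt 1.14, STAR 2.4.0i, SAMtools 1.6 and hg19, without their roles, and do not name a peak caller. Deposited columns were taken as −log10 p and log2 fold from their ranges.

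Distances were counted on the strand as in bedtools 2.31.1 closest, with overlap as 0 and abutting as 1, in Python 3.11.15 with pandas 2.3.3, numpy 2.4.6 and scipy 1.17.1. They matched bedtools for 3215 of 3215 peaks, and all of 1000 planted peaks got their class back. Shares have Clopper-Pearson and medians order-statistic intervals. No test was run, since each list joins the replicates.

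The members and lists were chosen with earlier results of these data known. Peaks named were the 10 of highest log2 fold, the 10 of highest −log10 p, the 3 widest and the 3 most remote. The 3 on each side of each distance limit were also named, and those outside a limit met the other limit. Peaks named in dense windows, on chromosome M and on opposite strands were chosen after their values were seen. Only GRCh38 annotation was at hand, so gene names, gene lists, location classes and sequence content were not analysed.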

Additional observations from a re-analysis of the deposited data

How the results depend on the processing

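Over 9 alternatives, 1 of them (leaving out the 10 members of highest −log10 p) chosen after seeing the data, 53 of 81 recomputed values stayed within the interval of the value reported, or within 1.5 times for the count. The share of members on chromosome 19 did so in 9 of 9. The share of TIA1 peaks that were solitary was 36.7% with a limit of 500 bases, 32.5% with 2000 and 26.5% with 10000. A limit of 500 bases gave a median distance to the next TIA1 peak of 152 kb, and 10000 bases one of 367 kb with a median width of 83 bases. Ignoring strand gave 111 kb. With a −log10 p of at least 5 in both lists there were 699 members (30.4%), with medians of 3.33 for log2 fold, 7.58 for −log10 p, 81 bases and 316 kb, and 596 of the 1104 members were kept. With a log2 fold of at least 4 there were 169 (57.1%), medians of 4.20, 8.34, 65 bases and 5687 kb, 57.4% on the plus strand and, by construction, 100% at that fold. Of these 169, 59 were among the 1104, since peaks left without their neighbours become solitary. Joining TIA1 peaks within 50 bases gave 54.7%, medians of 3.34 and 5.87, and 7.13% with a log2 fold of at least 4. Without peaks under 20 bases the share was 40.9%, with a median −log10 p of 5.76 and a distance of 242 kb. With joining, 215 joined sites became members while the list shrank from 3215 to 2413, which sets the share, and each site took its highest values. Beyond such construction the cause was not tested. No paired analysis was possible because the lists give 1 value per peak for the replicates together, so no replicate could be left out either. The alternatives on location classes and sequence content were not run for want of hg19. The depth is unknown, so a missing neighbour cannot be read as absence of binding.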
